A study of Mus musculus with 6 samples.

Results

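Vim and 9 other genes of intermediate filaments that are not keratins were followed in sorted basal cells of mouse mammary glands with and without intact Vim. The genes were chosen by name: Vim, Des, Gfap and Prph, Nes, Synm and Sync, and the lamin genes Lmna, Lmnb1 and Lmnb2. All 10 were found among the 23337 genes of the count tables, and all 10 had enough reads to be tested. The comparison addressed whether another filament gene was higher where Vim was lower.

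Messenger RNA had been sequenced from 2 wild-type libraries (genotype Vimwt/wt) and 4 knockout libraries (Vimtm1Cba/tm1Cba, homozygous for the targeted allele). All mice were of strain 129/Sv X C57BL/6 and 15 weeks old, and the cells were uncultured (p0). Each library pooled 2 to 3 mice, and basal cells had been sorted as live cells without the leukocyte antigen CD45 and the endothelial antigen CD31, with little CD24 and much CD49f. The labels name no Cre driver, so the allele cannot be taken as limited to basal cells. They mention 2 separate experiments without assigning samples, and a day code that the tables carry in their names placed wild type 1 and knockout 1 and 2 in experiment 1, and wild type 2 and knockout 3 and 4 in experiment 2. Nothing states that pools of 1 experiment came from different mice, so p-values measure the spread between these libraries.

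Intermediate filaments are built from rod-shaped proteins that pair through a coiled coil and assemble into tough, flexible cables. Vimentin is the filament protein of mesenchymal cells and is also present in basal mammary cells, where keratins form the main network. Desmin, peripherin and the glial fibrillary acidic protein belong to the same class as vimentin and can co-assemble with it. Nestin, synemin and syncoilin build no regular network alone and depend on a partner such as vimentin or desmin. Lamins form the separate meshwork under the nuclear envelope.

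Total counts were between 25347967 and 31200622 per library. Of 13925 genes tested with edgeR's quasi-likelihood test, 11 (0.079%) had a Benjamini-Hochberg adjusted p under 0.05, and 3 of these (0.0215%) were lower in knockout. With the experiment as a block 217 genes (1.56%) were called, and limma-voom called 10 (0.0718%). An unadjusted p under 0.05 was given to 8.57% of the genes by edgeR, the share to set beside each such count below. The 8 basal markers Krt5, Krt14, Trp63, Acta2, Myh11, Cnn1, Itga6 and Oxtr were present in every library, with a summed level of 16668 to 20395 on the TPM scale. Wild type 1 stood apart from the other libraries by its endothelial markers, given beside Vim and Nes. For the members other than Des, the log2 fold change without it is given too. For some endothelial and pericyte markers, values within each experiment are given. The TPM scale divides each count by the exon length of the gene and sets every library to a sum of 1000000, so that genes can be compared with each other.

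The sequences in front of Vim and Nes are shown because these were the only members whose knockout libraries all lay below both wild-type libraries, and because Vim reads continued to be counted in the knockout. Each is the RefSeq reference (GRCm38.p6, the assembly also called mm10) of the 250 bases before the start site on the plus strand, at chr2:13574061-13574310 for Vim and chr3:87970843-87971092 for Nes. Capitals mark matches, on either strand, to the TATA box TATAAA, the CCAAT box CCAAT, the GC box GGGCGG or the AP-1 motif TGANTCA, and no matches overlapped.
Vim: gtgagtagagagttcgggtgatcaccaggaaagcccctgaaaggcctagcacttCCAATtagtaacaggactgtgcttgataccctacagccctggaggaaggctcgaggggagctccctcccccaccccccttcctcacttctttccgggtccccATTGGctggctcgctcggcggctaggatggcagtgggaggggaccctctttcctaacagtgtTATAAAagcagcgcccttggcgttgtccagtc
Nes: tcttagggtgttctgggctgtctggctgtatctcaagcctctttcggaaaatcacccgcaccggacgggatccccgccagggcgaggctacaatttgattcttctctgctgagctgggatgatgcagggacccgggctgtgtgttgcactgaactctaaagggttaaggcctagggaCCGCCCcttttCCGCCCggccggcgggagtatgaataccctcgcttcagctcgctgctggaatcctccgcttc
Vim held a TATA box that began 32 bases before the start and CCAAT boxes at 196 and 94 bases, the latter on the minus strand. Nes held GC boxes at 73 and 62 bases, both on the minus strand, and no TATA or CCAAT box. Among 32851 reference promoter windows of the same length, 12.4% held the TATA box, 33.8% the CCAAT box, 32.7% the GC box and 6.75% the AP-1 motif. Of the 10 members, 9 had a promoter in the reference table, and Prph was the only other one of these with a TATA box. The mice carry a mixed background, so their own sequence may differ from this reference.

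The levels of the 10 genes spanned a wide range. Lmna stood highest, at 1372 to 1968 on the TPM scale over the 6 libraries, and its range met that of no other member. Vim (147 to 363), Lmnb1 (124 to 281) and Nes (60.5 to 140) followed, with ranges that overlapped from each to the next. Lmnb2 lay apart from its neighbours at 29.2 to 51.0. The ranges of Synm (6.17 to 12.8), Prph (4.83 to 10.7), Des (4.50 to 8.14) and Sync (2.77 to 6.36) ran into each other, and Gfap was lowest at 0.392 to 1.52. In wild type Vim came second after Lmna and in knockout it came below Lmnb1, an order that held in each of the 2 and the 4 libraries.

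**Figure D1:**
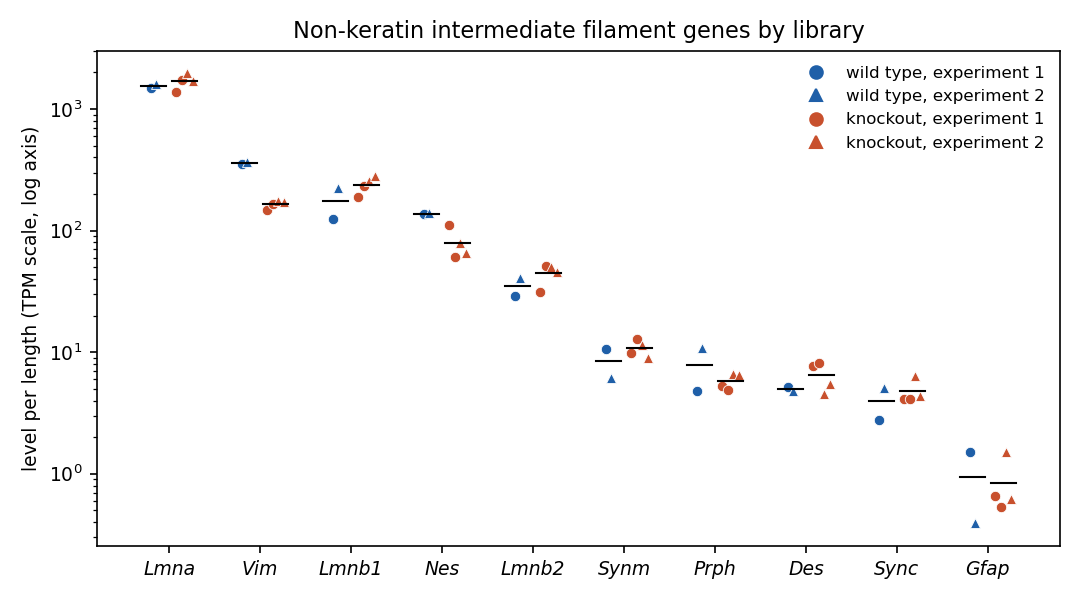
Level per exon length (TPM scale, log axis) of the 10 genes, with 1 point per library, colour for genotype, shape for experiment and a bar for the group mean. The groups stand apart for Vim, at 350 and 363 in the wild-type libraries, against 147 to 175 in knockout, and for Nes, at 136 and 140 and 60.5 to 110.

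Vim (chromosome 2, 13574311 to 13582826, plus strand, 9 exons) encodes vimentin. Its level on the TPM scale was 350 and 363 in wild-type libraries 1 and 2, against 147, 165, 175 and 171 in knockout 1 to 4. The groups were far apart, the 2 wild-type libraries nearly equal and the knockout libraries within a narrow band, so Vim RNA was lower in knockout but not absent. Its log2 fold change was -1.12 (SE 0.12, 95% interval -1.38 to -0.85, edgeR adjusted p = 0.019), nearly the same within experiment 1 (-1.13) and experiment 2 (-1.11), and Vim was the only member called. Vim was called without knockout 1 (adjusted p = 0.0403) and was not called when any other single library was left out, wild type 1 and 2 included (adjusted p from 0.0598 to 0.0908), while the log2 fold change stayed between -1.18 and -1.03. Fewer cells of a type and less RNA per cell cannot be told apart in such bulk libraries. The counts sum all exons of the gene, so they do not show which part of Vim the reads in knockout come from.

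Vim accounted for 96.8% and 95.8% of the summed level of Vim, Des, Gfap and Prph in the wild-type libraries. In knockout the share was still 91.6% to 93.3%. In RNA counted over all exons, then, Vim kept the largest share of its class in every knockout library. The counts do not show that these reads encode vimentin.

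Genes on both sides of Vim were not called. The nearest tested ones were Trdmt1, which encodes a tRNA methyltransferase and ends 29647 bases before Vim (log2 fold change 0.37, SE 0.26, adjusted p = 0.807), and Cubn (0.996, SE 0.62, adjusted p = 0.771), the intestinal and renal vitamin B12 receptor gene, at 6 to 23 counts per library. After Vim came St8sia6, a sialyltransferase gene (-0.01, SE 0.24, adjusted p = 0.999), and Ptpla (-0.28, SE 0.24, adjusted p = 0.882). No gene of the table overlapped Vim.

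Nes (chromosome 3, 87971093 to 87980451, plus strand, 4 exons) encodes nestin, a long filament protein best known from neural progenitors, muscle and vessels. Its level on the TPM scale was 136 and 140 in wild-type libraries 1 and 2, against 110, 60.5, 78.7 and 65.9 in knockout 1 to 4. All 4 knockout libraries lay below both wild-type libraries, with knockout 1 the nearest to them. The fitted log2 fold change was -0.81 (SE 0.22, 95% interval -1.30 to -0.31), and edgeR did not call it (adjusted p = 0.283, or 0.155 with the experiment as a block). DESeq2 did, by a narrow margin (-0.80, SE 0.24, adjusted p = 0.047), in a test that called 261 genes (1.87%), 98 of them lower (0.704%). Within the experiments the log2 difference was -0.692 and -0.995. A full separation of the groups with knockout lower was found in 8.57% of all tested genes, and among the members in Vim and Nes.

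The ratio of Vim to Nes on the TPM scale was 2.58 and 2.60 in the wild-type libraries. It was 1.33 in knockout 1 and 2.73, 2.22 and 2.59 in knockout 2 to 4. Nes was lower than in wild type by less in knockout 1 than in the other knockout libraries, while Vim was low in all 4.

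Endothelial cells express both Vim and Nes, and their markers moved with the groups. The summed level of Pecam1, Cdh5, Kdr, Tek, Emcn and Cldn5 on the TPM scale was 92.6 and 26.0 in wild-type libraries 1 and 2 and 6.98, 14.5, 15.6 and 9.90 in knockout 1 to 4. In CPM each of the 6 markers was lower in all knockout libraries than in both wild-type libraries. That separation was held by 8.57% of tested genes, and no marker was at 0. On the TPM scale Kdr overlapped, at 0.650 in knockout 2 and 0.644 in wild type 2. For Cdh5, the cadherin gene of vessel walls, edgeR gave a log2 difference of -2.29 (SE 0.43, adjusted p = 0.176), while for Pecam1, the gene of the CD31 used in the sort, -1.97 (SE 0.39, adjusted p = 0.181). The differences were larger within experiment 1, which holds wild type 1, than within experiment 2. They were -3.12 and -1.18 for Cdh5, -2.57 and -1.17 for Pecam1 and -3.20 and -0.56 for Emcn. edgeR called 0 of the 6, all 6 had an unadjusted p under 0.05, and limma-voom called 0. DESeq2 called 5, all lower, as were 0.704% of all genes it tested.

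Wild type 1 and 2 differed strongly in these markers and hardly in Vim or Nes. Without wild type 1, the library with the highest endothelial level, the log2 fold change was -1.18 for Vim (adjusted p = 0.0824) and -0.86 for Nes (adjusted p = 0.524). Markers of pericytes and fibroblasts, 2 other cell types that can express Vim, also had mostly lower values in knockout. All 6 tested pericyte markers had a log2 fold change below 0, with a median of -0.62 against -0.01 over all genes, and 0 had fully separated groups. The values were -1.59 (SE 0.62) for Rgs5, -1.21 (SE 0.53) for Abcc9 and -0.81 (SE 0.40) for Cspg4. Kcnj8 had -0.43 (SE 0.64). The most abundant pericyte markers, Notch3 and Pdgfrb, were close to no difference, at -0.07 (SE 0.27) and -0.05 (SE 0.24). Within experiment 1, which holds wild type 1, all 6 were below 0, among them Kcnj8 (-1.52), Abcc9 (-1.45) and Cspg4 (-1.27). Within experiment 2, Rgs5 (-0.96) and Abcc9 (-0.71) were below 0. Kcnj8 (0.98), Notch3 (0.21), Pdgfrb (0.15) and Cspg4 (0.02) were above 0 there. In the fit to all libraries 7 of 8 fibroblast markers were below 0, with a median of -0.34. The low Lum (-1.46, SE 0.34) and Dpt (-1.62, SE 0.47) had groups that did not overlap, a separation with knockout lower that 8.57% of tested genes had. The abundant Dcn was at -0.11 (SE 0.20) and Fbln1 at 0.40 (SE 0.25). edgeR, DESeq2 and limma-voom called 0 genes of either list. What part the differences in endothelial, pericyte and fibroblast markers have in the values of Vim and Nes was not tested.

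**Figure D2:**
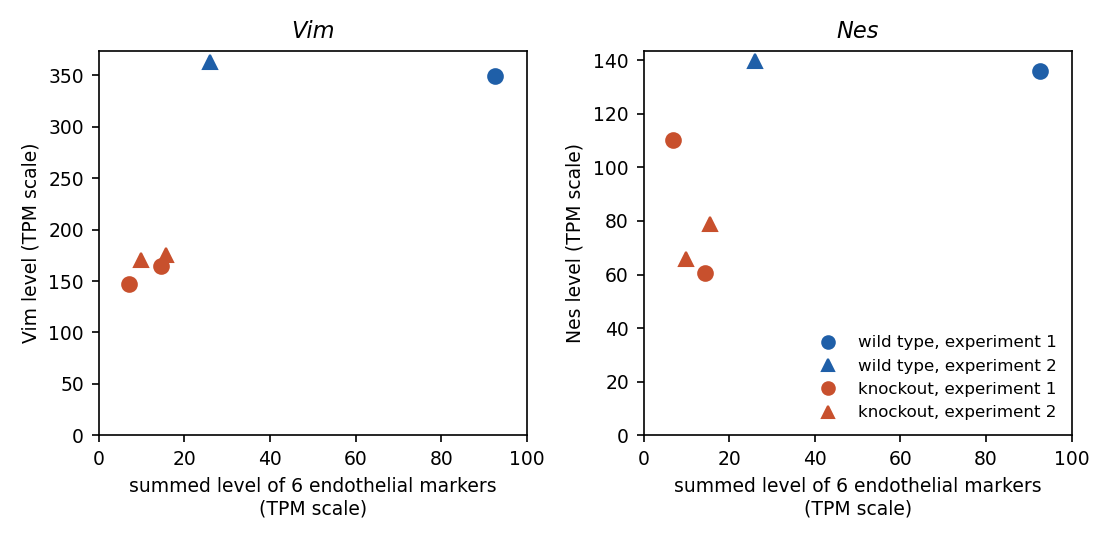
Level of Vim (left) and Nes (right) against the summed level of 6 endothelial markers, all on the TPM scale, with 1 point per library, colour for genotype and shape for experiment. Wild type 1 and 2 lie at 92.6 and 26.0 on the horizontal axis and at almost the same height for both genes, while the knockout libraries lie at 6.98 to 15.6 and lower.

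Des, Gfap and Prph, the closest relatives of Vim, were not called in either direction. Des (chromosome 1, 75360344 to 75367715) encodes desmin, the filament protein of muscle. Its level on the TPM scale was 5.21 and 4.76 in wild type and 7.64, 8.14, 4.50 and 5.51 in knockout. The 2 knockout libraries of experiment 1 were the highest of all, and those of experiment 2 lay around the wild-type values. On the log2 scale the change was 0.37 (SE 0.28, 95% interval -0.28 to 1.02, edgeR adjusted p = 0.85), with 0.63 in experiment 1 and 0.03 in experiment 2.

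Prph (chromosome 15, 99055174 to 99058978) encodes peripherin, a filament protein of peripheral neurons. Its level on the TPM scale was 4.83 and 10.7 in wild type and 5.26, 4.84, 6.59 and 6.53 in knockout. The wild-type libraries bracketed all knockout libraries. The fit gave a log2 fold change of -0.44 (SE 0.35, 95% interval -1.23 to 0.36, adjusted p = 0.859). It was 0.10 within experiment 1 and -0.74 within experiment 2, and it turned to 0.33 without wild type 2.

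Gfap (chromosome 11, 102887336 to 102897200, minus strand) encodes the glial fibrillary acidic protein of astrocytes and of some Schwann cells. It was the lowest member, with 67 and 15 counts in wild-type libraries 1 and 2, against 29, 19, 64 and 23 in knockout 1 to 4. One library of each genotype was high, wild type 1 and knockout 3, and the groups overlapped fully. Its log2 fold change was -0.16 (SE 0.60, 95% interval -1.53 to 1.21, adjusted p = 0.984). Within experiment 1 the log2 difference was -1.23 and within experiment 2 it was 1.18, and the difference between the experiments was not called across all genes (edgeR interaction 2.69, SE 0.89, adjusted p = 0.998, unadjusted p = 0.0182, with 4.21% of all genes under an unadjusted 0.05 and 0 called).

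Schwann cell markers were summed beside Gfap. Over 10 markers the level on the TPM scale was 292 and 202 in wild-type libraries 1 and 2, against 252, 405, 350 and 236 in knockout 1 to 4, so knockout 2 was highest for the markers and low for Gfap, while knockout 3 was high for both. Sox10, a transcription factor gene that basal mammary cells also express, and Mbp, a myelin protein gene, were the most abundant, and Sox10 had a log2 fold change of 0.14 (SE 0.25). All 10 had a log2 fold change above 0, and edgeR and limma-voom called 0 of them. edgeR gave 5 an unadjusted p under 0.05, all higher. DESeq2 called 2, both higher, beside 1.87% of all genes it tested, called in either direction. With the block edgeR called 1, higher, as were 1.12% of all tested genes. The groups did not overlap for 4 of the 10, all higher in knockout, a separation held by 7.6% of tested genes. These were Mbp (0.53, SE 0.17), the cadherin gene Cdh19 (2.62, SE 0.50, DESeq2 adjusted p = 1.6e-06), Foxd3 (3.67, SE 0.92, edgeR adjusted p = 0.0487 with the block) and the myelin gene Mag (1.64, SE 0.56). The part of such cells in the Gfap values was not tested.

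Synm and Sync encode the partner proteins synemin and syncoilin. Synm (chromosome 7, 67730161 to 67759742, minus strand) had levels on the TPM scale of 10.6 and 6.17 in wild type and 9.92, 12.8, 11.4 and 9.02 in knockout. Wild type 2 was the lowest library and wild type 1 lay within the knockout range. The fitted log2 fold change was 0.37 (SE 0.21, 95% interval -0.12 to 0.86, adjusted p = 0.738). Its size rested on the wild-type library it was set against, with 0.12 within experiment 1 and 0.68 within experiment 2. Leaving out wild type 1 gave 0.77, and leaving out wild type 2 gave 0.08.

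Sync (chromosome 4, 129287621 to 129308559) had levels of 2.77 and 5.12 in wild type and 4.14, 4.15, 6.36 and 4.35 in knockout on the same scale. Knockout 3 lay above both wild-type libraries and the other 3 knockout libraries lay between them. On the log2 scale the change was 0.26 (SE 0.35, 95% interval -0.53 to 1.05, adjusted p = 0.946), changing to -0.14 when wild type 1 was left out and to 0.84 when wild type 2 was. Within experiment 1 the difference was 0.61 and within experiment 2 it was 0.00. Sync overlaps Rbbp4 on the opposite strand, and per the file headers reads were counted by strand.

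**Figure D3:**
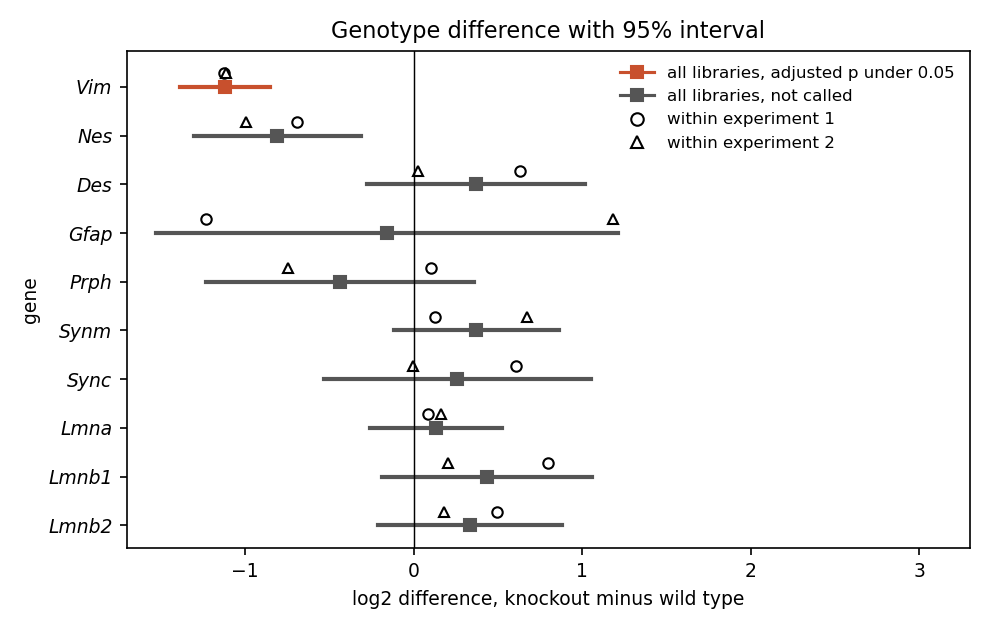
Log2 difference of knockout minus wild type for the 10 genes: squares with 95% intervals from the fit to all libraries (coloured where the adjusted p was under 0.05), and open symbols for the values within experiment 1 (circles) and experiment 2 (triangles). Vim and Nes lie below 0 with intervals that do not reach it, and the intervals of the other 8 genes include 0.

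The amounts of the cytoplasmic members can be set against the loss of Vim, meaning the drop in its RNA level. On the TPM scale the mean of Vim was 356 ± 9.39 in wild type (SD, n = 2) and 164 ± 12.3 in knockout (SD, n = 4), a difference of -192. Des, Gfap, Prph, Synm and Sync together had 24.9 and 27.2 in wild type and 27.6, 30.5, 30.4 and 26.0 in knockout. Their sums therefore overlapped between the genotypes, and the means differed by 2.58. At the upper bound of its own 95% interval each of the 5 would gain between 1.24 (Gfap) and 6.87 (Synm). To equal the loss of Vim in level, Synm would have to rise 23.9-fold and Des 39.6-fold, and the upper bounds of their intervals were 1.82-fold and 2.03-fold.

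With Nes included, the 6 cytoplasmic members other than Vim had a summed level of 161 and 167 in wild type and 138, 91.0, 109 and 92.0 in knockout. That sum was lower in each knockout library than in both wild-type libraries, and the means differed by -56.3, of which Nes alone made -58.9. The sum of all 7 cytoplasmic members was 511 and 530 in the wild-type libraries, against 256 to 285 in knockout. No rise of another cytoplasmic member of a size near the loss of Vim was seen in these mRNA levels, and protein was not measured.

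**Figure D4:**
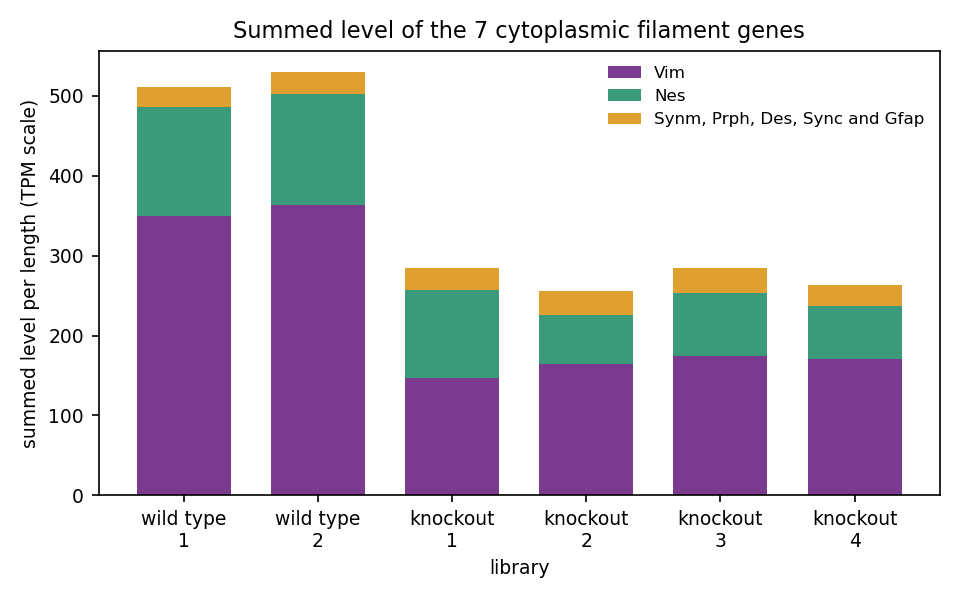
Stacked bars of the level on the TPM scale of Vim, of Nes and of the other 5 cytoplasmic members together in each library. The total is 511 and 530 in the wild-type libraries and 256 to 285 in the knockout libraries, and the top segment of 5 genes is 24.9 to 30.5 in every library.

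The keratin genes, which encode the main cytoplasmic filaments of these cells, were far more abundant. They were taken as the 47 genes whose symbol is Krt followed by a number alone, which leaves out symbols ending in a letter. Summed over these 47 genes, the level on the TPM scale was 24185 and 23809 in the wild-type libraries, against 26065, 23512, 21122 and 21801 in knockout. The groups therefore overlapped, and Vim came to 1.45% and 1.53% of this sum in wild type. Of 26 tested keratin genes edgeR, DESeq2 and limma-voom called 0, and 2 had an unadjusted p under 0.05, both higher. Of the 26, 16 had a log2 fold change above 0 and 10 below. Groups were separated with knockout higher for 4, against 7.6% of tested genes, and lower for 1, against 8.57%. Krt17, Krt14 and Krt5 were the most abundant, with log2 fold changes of -0.06 (SE 0.16, adjusted p = 0.968), 0.00 (SE 0.14, adjusted p = 0.999) and -0.24 (SE 0.16, adjusted p = 0.785). The luminal keratin genes Krt18 and Krt8 had mean differences of 190 and -77.0 on the TPM scale (edgeR adjusted p = 0.736 and 0.932). That of Krt18 was close in size to the loss of Vim (192). In CPM its groups were separated, at 612 and 546 in wild type and 616 to 712 in knockout. On the TPM scale they overlapped, at 1308 and 1078 and 1238 to 1470. Its 95% interval of 0.955-fold to 1.42-fold includes no change, so the fit does not decide whether Krt18 rose. Reads shared by near-identical keratin genes are not in the counts, so the levels of such genes are uncertain.

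Neurofilament, lens filament and orphan filament genes were mostly at very low counts. Nefl, Nefm and Ina, which encode subunits of neuronal filaments, had 5 counts or fewer in each library, and the lens gene Bfsp2 had none. Of 8 listed genes 4 were tested and edgeR, DESeq2 and limma-voom called 0, with 0 at an unadjusted p under 0.05. Iffo2, an orphan filament gene, was the only abundant one (log2 fold change -0.16, SE 0.20, adjusted p = 0.939).

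The lamin genes were not called. Lmna (chromosome 3, 88481149 to 88503332, minus strand), which encodes lamins A and C, had levels on the TPM scale of 1489 and 1594 in the wild-type libraries, against 1372, 1719, 1968 and 1710 in knockout. Knockout 1 was the lowest library and the other knockout libraries were the highest. The fit gave a log2 fold change of 0.13 (SE 0.17, 95% interval -0.26 to 0.53, edgeR adjusted p = 0.941), with 0.09 in experiment 1 and 0.16 in experiment 2. Leaving out wild type 1 gave 0.05, and leaving out wild type 2 gave 0.24. Because Lmna is so abundant, a 1.12-fold rise would equal the loss of Vim in level. That lies within its interval of 0.835-fold to 1.44-fold, so the fit does not decide whether Lmna rose by that much.

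Lmnb1 (chromosome 18, 56707813 to 56753424) encodes lamin B1, a permanently farnesylated lamin whose level is known to be high in dividing cells. Its level on the TPM scale was 124 and 226 in the wild-type libraries, against 191, 231, 254 and 281 in knockout. Wild type 1 was by far the lowest library, and wild type 2 lay within the knockout range. Its log2 fold change was 0.44 (SE 0.27, 95% interval -0.19 to 1.06, adjusted p = 0.768). It was 0.80 within experiment 1 and 0.20 within experiment 2, with an interaction of -0.60 (SE 0.23, adjusted p = 0.998, unadjusted p = 0.0343). Leaving out wild type 1 gave 0.05, and leaving out wild type 2 gave 1.01 (adjusted p = 0.264). DESeq2 with the experiment as a block, a fit chosen after the data were seen, called Lmnb1 higher (0.51, SE 0.16, adjusted p = 0.0422) along with 3.38% of all tested genes, and edgeR with the block did not (adjusted p = 0.165). Gm5506 overlaps Lmnb1 on the same strand, and reads over both are not in the counts.

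Cell cycle markers were set beside Lmnb1. The summed level of 10 such genes, among them Top2a and Cdk1, was 43.7 and 18.3 in wild-type libraries 1 and 2, against 59.6, 19.7, 31.9 and 28.5 in knockout 1 to 4 on the TPM scale. Wild type 1 was second highest for these markers and lowest for Lmnb1. edgeR, DESeq2 and limma-voom called 0 of the 10, and 0 had an unadjusted p under 0.05.

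Lmnb2 (chromosome 10, 80901363 to 80918245, minus strand) encodes lamin B2, the other B-type lamin. Its level on the TPM scale was 29.2 and 41.1 in wild type and 31.3, 51.0, 50.1 and 45.9 in knockout. Knockout 2, 3 and 4 were above both wild-type libraries and knockout 1 lay between them. The fitted log2 fold change was 0.33 (SE 0.24, 95% interval -0.21 to 0.88, adjusted p = 0.823), with 0.49 in experiment 1, 0.18 in experiment 2, 0.08 without wild type 1 and 0.67 without wild type 2. The ratio of Lmna to the B-type lamin genes on the TPM scale was 9.70 and 5.97 in wild type and 5.23 to 6.46 in knockout, where wild type 1 stood apart from all other libraries.

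Enzymes and partners of the lamina, such as the emerin gene Emd and the processing protease gene Zmpste24, were listed with the lamins. Of 20 listed genes 18 were tested, and edgeR, DESeq2 and limma-voom called 0, with 1 (Emd) at an unadjusted p under 0.05, and the median log2 fold change was 0.05 beside -0.01 over all tested genes. The values were 0.32 for Emd (SE 0.13, adjusted p = 0.55), 0.19 for Tor1aip1, of the inner nuclear membrane (SE 0.11, adjusted p = 0.766), and -0.18 for Zmpste24 (SE 0.16, adjusted p = 0.896).

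Filament linkers connect intermediate filaments to junctions and to the other cytoskeletal systems. Of 11 tested genes edgeR, DESeq2 and limma-voom called 0, and 2 had an unadjusted p under 0.05, both lower, with a median log2 fold change of -0.04. These were Dsp, the desmoplakin gene (-0.40, SE 0.16, adjusted p = 0.541), and Plec, the gene of plectin, which links keratins to hemidesmosomes (-0.30, SE 0.13, adjusted p = 0.578). Plec was at 1005 and 1182 CPM in wild type and 959, 836, 916 and 830 CPM in knockout, so the groups did not overlap, with knockout 1 close to wild type 1. Of the 11 linkers 3 (Dsp, Plec and Ppl, the periplakin gene) were separated with knockout lower, against 8.57% of tested genes, and 1 (Evpl, the envoplakin gene) with knockout higher, against 7.6%.

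Kinases, chaperones and turnover factors of filaments held 18 tested genes with a median log2 fold change of -0.02. edgeR called 0 and limma-voom 0, and 2 had an unadjusted p under 0.05, both higher. DESeq2 called 1, higher, beside 1.87% of all genes it tested, called in either direction. With the experiment as a block edgeR called 2. Both were higher, as were 1.12% of all tested genes with the block: Hspb1, a small heat shock protein that associates with filaments (0.76, SE 0.13, adjusted p = 0.0211), and Pak1, a kinase that phosphorylates vimentin (0.56, SE 0.11, adjusted p = 0.0336). Hspb1 was at 68.7 and 105 CPM in wild type and 122, 149, 155 and 155 CPM in knockout, with no overlap, a separation with knockout higher that 7.6% of tested genes had. By genotype alone the edgeR log2 fold change of Hspb1 was 0.74 (SE 0.19, adjusted p = 0.269) and that of Pak1 0.56 (SE 0.19, adjusted p = 0.418). DESeq2 by genotype alone called Hspb1 (0.75, SE 0.21, adjusted p = 0.0241) and not Pak1 (adjusted p = 0.167).

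Transcription factors that are tied to Vim in other cells were measured as well. Of 18 tested genes edgeR, DESeq2 and limma-voom called 0, and at an unadjusted p under 0.05 there were 2 higher and 1 lower, with a median log2 fold change of 0.15. The AP-1 genes Fosl2 (0.58, SE 0.20, adjusted p = 0.452) and Jund (0.32, SE 0.12, adjusted p = 0.488) and the general factor gene Sp1 (0.27, SE 0.12, adjusted p = 0.584) had positive values. Zeb1, a repressor of epithelial genes that mesenchymal cells also express, had -0.84 (SE 0.32, adjusted p = 0.508), at 109 and 61 counts in wild type and 33 to 62 in knockout. In CPM its groups did not overlap, at 3.32 and 2.35 in wild type and 1.26 to 2.08 in knockout. Of the 18 genes 2 were separated with knockout lower, against 8.57% of tested genes, and 3 with knockout higher, against 7.6%.

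The genes whose pattern over the 6 libraries was most like that of Vim were found by the root mean square distance between centred log2 CPM profiles, over 11298 genes whose log2 CPM averaged 1 or more. The nearest were Ank2, an ankyrin gene (distance 0.17), Rsad1 (0.17), the connexin gene Gjc1 (0.17), Tro (0.20) and Ptger2, a prostaglandin E receptor gene (0.22). Since the genotypes differ in Vim, such genes must be lower in knockout too. Their log2 fold changes ran from -1.28 (Rsad1) to -0.72 (Ptger2), given as a description because the genes were chosen for this pattern. Nes had a distance of 0.36 and was 156th in that order, the nearest of the other members.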

How the data were processed

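The authors deposited raw read counts per gene and library. Per the file headers they were made with featureCounts 1.5.1 over exons of the UCSC mm10 annotation, with strand option 2 and without the options for multi-mapped or multi-gene reads, so shared reads of paralogs and overlapping genes are missing. STAR 2.5.2b, Subread 1.5.1 and bcl2fastq 2.17 are named in the submitters' processing notes. Totals of 25347967 to 31200622 counts make counting error small for all members but Gfap, Des, Prph and Sync.

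From the counts, edgeR 4.0.16 in R 4.3.3 was fitted to all 6 libraries (filterByExpr, which kept 13925 of 23337 genes; TMM; robust glmQLFit and 2-sided glmQLFTest; genotype only), with Benjamini-Hochberg adjustment over all tested genes. SE is the log2 fold change divided by the root of F, and 95% intervals use the fitted degrees of freedom. CPM is on the TMM scale and log2 CPM has a prior count of 2. The TPM scale was computed here. Values within an experiment are differences of mean log2 CPM. DESeq2 1.42.0, limma-voom (limma 3.58.1), the block, other scalings and filters and leaving out each library were alternatives.

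Across genes, deviations from the group means had r from 0.25 to 0.41 for pairs of wild-type and knockout libraries that shared an experiment. Other pairs had the mirrored negative values. The mirroring is fixed by arithmetic, because the deviations of the wild-type libraries are exact opposites, and it adds no evidence. The deviations of the knockout libraries must also cancel out, so r of both signs had to occur. Only the choice of knockout libraries with positive r was free, and it followed the day code. The experiment, taken from the day code and not from the numbers in the sample titles, was used as the block.

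The members and lists were chosen with earlier results of these data known. Genes named were all members, the leading genes by p of each filament list (up to 4), the most abundant markers (2 a list) and keratins (3), the 2 nearest tested genes on each side of Vim, and the 5 profiles most like Vim. Other endothelial, pericyte, fibroblast and Schwann cell markers, Evpl, Pax7, genes overlapping members other than Vim and the untested filament genes were named after their values were seen.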

Additional observations from a re-analysis of the deposited data

Results flagged for a closer look

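Among the 4 knockout libraries, knockout 3 stood far from the others in 2 of the 10 members. Gfap was at 2.15 CPM there and at 0.751 to 0.912 CPM in the other knockout libraries. Sync was at 4.50 CPM there and at 2.89 to 3.15 CPM in the others. In each case the gap to the nearest library, divided by the range of the 4, was above Dixon's critical value (0.885 for Gfap and 0.841 for Sync). Chance alone gives such a gap in about 1 of 20 groups, and 10 groups were looked at.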

How the results depend on the processing

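Vim kept its direction under all 16 other settings. Leaving out 1 library in turn gave log2 fold changes from -1.18 to -1.03, and the adjusted p stayed under 0.05 only without knockout 1 (0.0403); where 1 wild-type library was left, it was assumed to vary like the knockout libraries. All genes called numbered 11, 261 by DESeq2, 217 with the replicate block, 229 by limma-voom with the block, 676 by DESeq2 with the block, and 3 to 15 with 1 library left out. Of members other than Vim, 0 were called as reported and with the replicate block in edgeR, 1 by DESeq2 (Nes) and 2 by DESeq2 with the block (Nes and Lmnb1), and 0 under the remaining settings. The DESeq2 and limma-voom fits with the block were chosen after the data were seen. The replicate block changed the call of no member in edgeR. With 1 library left out, Gfap ran from -0.78 (without wild type 2) to 1.05 (without wild type 1; 0.02 without knockout 2), Prph from -0.92 (without wild type 1) to 0.33 (without wild type 2) and Sync from -0.14 (without wild type 1) to 0.84 (without wild type 2). The cause was not tested. Of 144 values of the other members under these settings, 137 kept direction and side of the threshold. Gfap had 15 to 67 counts a library. The difference of the Vim effect between the experiments was 0.01 in both computations, and Vim in knockout was 46.1% of wild type on both scales per length.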

Other observations

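Markers of further cell types were summed on the TPM scale. Over 8 fibroblast markers the level was 167 and 144 in wild type and 173, 146, 136 and 114 in knockout; edgeR, DESeq2 and limma-voom called 0, and 2 had an unadjusted p under 0.05, both lower. The abundant Dcn and Fbln1 had log2 fold changes of -0.11 (SE 0.20) and 0.40 (SE 0.25), and Fbln1 was the only one of the 8 above 0. Over 7 pericyte markers the level was 29.5 and 15.6 in wild type and 13.6 to 20.3 in knockout, with 0 of 6 tested genes called by the same tests and 1 lower at an unadjusted p under 0.05. Over 10 luminal markers it was 2900 and 2433 in wild type and 2490 to 3124 in knockout, with 0 called and 2 higher at an unadjusted p under 0.05.

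The 7 leukocyte markers in the table summed to 77.9 and 69.6 in wild type and 50.5 to 90.8 in knockout, nearly all of it Cd68, and 0 of 3 tested genes were called or had an unadjusted p under 0.05. The 8 skeletal muscle markers summed to 3.22 and 2.19 in wild type and 3.31 to 4.73 in knockout, with Pax7 at 0 in every library. Of 3 tested muscle markers 0 were called and 2 were higher at an unadjusted p under 0.05, among them Myod1, at 5 and 7 counts in wild type and 13 to 32 in knockout. Of the 8 basal markers 0 were called by edgeR, DESeq2 or limma-voom, and 1 was higher at an unadjusted p under 0.05.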
